A study of Mus musculus with 12 samples.

Results

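Cytosolic ribosomal protein genes were examined for occupancy by Mediator in mouse embryonic stem cells. They were taken from the RefSeq gene table of GRCm38.p6, the assembly that mm10 stands for, as protein-coding genes with a symbol of Rps or Rpl followed by a digit, together with Rpsa, Rplp0, Rplp1 and Rplp2. The Rps6k kinase genes were left out. This gave 91 of 21887 protein-coding genes, 35 with small subunit symbols and 56 with large subunit symbols. They lay on 19 chromosomes, with at most 14 on 1 of them, and their median span was 3175 bp, against 17169 bp for all protein-coding genes. Of the 91 symbols, 7 were set apart by name, as retroposed copies or genes of other proteins: Rps19bp1, Rps23rg1, Rps27rt, Rpl37rt, Rpl31-ps12, Rpl34-ps1 and Rpl32l. Rpl10l and Rpl36al, which are copies as well, were kept with the paralogues. Peaks of each protein's 4 libraries were merged, and a region was given to these genes if they were the nearest protein-coding genes within 100 kb. This yielded 315 of 65291 MED1 regions and 277 of 66123 MED24 regions.

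The cells were of the E14tg2a line (129SV background) and all of them stably carried a cRAF-ErT2 cassette, a fusion of the RAF kinase to a hormone-binding domain that 4-hydroxytamoxifen (4OHT) switches on, and through it ERK signalling. All were grown in serum with LIF and 2 µM Chir99021 and were moved, 24 h before the treatment, to serum and LIF with 250 nM PD173074, an inhibitor of FGF receptors. They were then given 250 nM 4OHT for 2 h, or left untreated (0 h). Chromatin of clones a and b was precipitated with an antibody to MED1, or with anti-FLAG for MED24, which gave 8 peak lists in 4 groups of 2 libraries. The 4 inputs are not analysed here, and neither a vehicle library nor a library of cells without the cassette was used. 4OHT, time and ERK activation therefore cannot be told apart. The labelled cell type was checked at 5 pluripotency markers, of which Pou5f1, Sox2, Nanog and Zfp42 had a start called in all 4 libraries of each protein and Esrrb in none, and at 5 fibroblast markers, of which 0 had such a start and 2 had a start gained at 2 h for each protein.

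Ribosomal proteins form the ribosome with ribosomal RNA, and each one is needed in nearly equal amounts. Their genes are short, lack a strict TATA box in most cases, and are among the most strongly transcribed genes of growing cells. Mammalian ribosomal protein promoters are known for ETS-family and YY1 elements, and their transcripts begin with a 5′ terminal oligopyrimidine (TOP) tract, through which mTOR controls their translation. Mediator links transcription factors to RNA polymerase II. MED1 belongs to its middle part and MED24 to its tail part, and MED1 is widely used to mark strong enhancers as well as promoters.

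The promoters of 6 members are shown from base -120 to base +25 of the annotated start, all on the coding strand, in lower case. Capitals mark CCGGAA, the core of the ETS element, or its reverse complement TTCCGG. Rps12, Rps7 and Rpl18 are shown as starts that ranked among the highest for MED1, Rpl13a and Rps23rg1 as starts that ranked lower at 2 h for both proteins, and Rpl36al as the start that differed most between the proteins among the ribosomal proteins proper. The sequences are from RefSeq, GRCm38.p6.
Rps12 (chr10:23787185-23787329, minus strand): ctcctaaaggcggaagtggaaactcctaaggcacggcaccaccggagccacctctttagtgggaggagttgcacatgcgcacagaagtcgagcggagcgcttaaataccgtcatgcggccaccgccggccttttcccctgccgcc
Rps7 (chr12:28635929-28636073, minus strand): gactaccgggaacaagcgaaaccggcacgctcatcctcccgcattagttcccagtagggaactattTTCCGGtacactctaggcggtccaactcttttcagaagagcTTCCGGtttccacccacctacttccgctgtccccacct
Rpl18 (chr7:45717951-45718095, plus strand): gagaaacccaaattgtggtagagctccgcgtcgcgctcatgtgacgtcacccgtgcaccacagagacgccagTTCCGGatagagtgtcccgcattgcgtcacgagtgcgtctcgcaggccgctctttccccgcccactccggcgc
Rpl13a (chr7:45128721-45128865, minus strand): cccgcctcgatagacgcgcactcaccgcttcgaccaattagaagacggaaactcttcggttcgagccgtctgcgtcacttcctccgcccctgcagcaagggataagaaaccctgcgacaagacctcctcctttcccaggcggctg
Rps23rg1 (chr8:3567878-3568022, plus strand): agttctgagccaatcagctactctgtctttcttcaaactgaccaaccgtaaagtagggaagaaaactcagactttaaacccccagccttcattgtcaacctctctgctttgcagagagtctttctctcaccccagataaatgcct
Rpl36al (chr12:69184043-69184187, minus strand): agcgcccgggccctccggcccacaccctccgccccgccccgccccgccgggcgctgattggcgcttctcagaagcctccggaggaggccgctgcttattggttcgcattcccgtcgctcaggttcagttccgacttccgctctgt
The core stood at 2 places in Rps7 and at 1 in Rpl18, and it was absent from the other 4 windows shown.

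The RefSeq promoter table, which spans 250 bases before each start to 50 after it, held 82 promoters of 70 members. The other 21 members had no entry. CCGGAA, searched on both strands, was in 45.1% of the 82 promoters, against 18.7% of 21263 promoters of protein-coding genes. The longer ETS element ACCGGAAG, which contains the core, was in 12.2% against 3.01%, and 14.6% against 4.79% held the core at least 2 times. The YY1 element AAGATGG was in 14.6% of member promoters, against 6.24% of all. A C followed by at least 4 pyrimidines, with the C within 10 bases of the start on the coding strand, was in 53.7% against 31.1%. The SP1 element GGGCGG was in 57.3% against 46.2%, the TATA element TATAAA in 11.0% against 12.6% and the E-box CACGTG in 9.76% against 7.84%. The median GC content was 57.8% in member promoters, against 56.3% in all. These shares describe letters in a window and not bound sites, and no test was made of them.

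Mediator was called at the starts of nearly all ribosomal protein genes, at both times. A gene start was called in a library where a peak lay within 1 kb of it. Where a pair of values is given for a time, the first is clone a and the second clone b. For members without a table start, both ends of the gene span were used. MED1 was called at 87 and 84 of the 91 starts at 2 h, and at 84 and 85 at 0 h. MED24 was called at 85 and 85 starts at 2 h, and at 83 and 83 at 0 h. In each library 49.5% to 56.4% of all protein-coding genes were called. The start was called in all 4 libraries at 83 members (91.2%) for MED1, against 47.7% of all protein-coding genes. For MED24 it was called in all 4 at 82 members (90.1%), against 44.9% of all. Among the 70 members with a start in the table, the numbers were 64 (91.4%) for MED1 and 63 (90%) for MED24. Of all 17492 protein-coding genes with a start in the table, 48.5% were called in all 4 libraries for MED1 and 45.6% for MED24.

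Both subunits of the ribosome were covered. Of the 35 small subunit genes, 34 were called in all 4 libraries for MED1 and 34 for MED24. The exception in both was Rps27rt, a retroposed copy. Of the 56 large subunit genes, 49 were called in all 4 libraries for MED1 and 48 for MED24. The members without a start region in any MED1 library were Rpl31-ps12, Rpl32l, Rpl37rt and Rps27rt, all of them among the 7 symbols set apart. Rpl3l, the muscle paralogue of Rpl3, joined them for MED24. Rpl17 has no start in the table, and calls at the ends of its gene span were weak and scattered. The region nearest an end was called in clone b at 0 h alone, at the 2.56th percentile for MED1 and the 21.6th for MED24. A MED1 region 0.69 kb from an end was lost, at 12.8 and 6.91 at 0 h. Rpl17 was also assigned regions called in all 4 libraries, 1 for MED1 and 2 for MED24. In clone b at 2 h, however, neither protein had a peak within 1 kb of an end.

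The strength of each region was read as a percentile, the rank of its best peak among all peaks of the same library, with 100 for the strongest. MED1 was ranked by the −log10 p of the authors' peak caller and MED24 by its score. MED1 at the 83 starts had a median percentile of 89.7 and 89.7 at 2 h, and of 93.3 and 92.0 at 0 h. All starts called in every library had medians of 69.6 and 71.9 at 2 h, and of 74.7 and 73.1 at 0 h. MED24 at the 82 starts had a median of 84.9 and 86.3 at 2 h, and of 88.1 and 86.0 at 0 h. All MED24 starts had medians of 67.2 and 70.4 at 2 h, and of 67.0 and 62.7 at 0 h. In each of the 8 libraries the median of the members was above that of all starts. At or above the 90th percentile stood 41 and 39 of the 83 MED1 starts at 2 h, and 54 and 49 at 0 h. For MED24 these numbers were 19 and 28 of 82 at 2 h, and 29 and 22 at 0 h. As shares, these were 49.4% and 47.0% of the MED1 starts at 2 h and 65.1% and 59.0% at 0 h, beside 14.6% and 15.8% of all called starts at 2 h and 19.8% and 18.5% at 0 h. For MED24 they were 23.2% and 34.1% at 2 h and 35.4% and 26.8% at 0 h, beside 10.3% and 11.3% of all called starts at 2 h and 10.5% and 8.53% at 0 h. MED1 had fewer starts in that class at 2 h in both clones, whereas MED24 had fewer in clone a and more in clone b, and the shares over all called starts moved in the same directions.

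**Figure D1:**
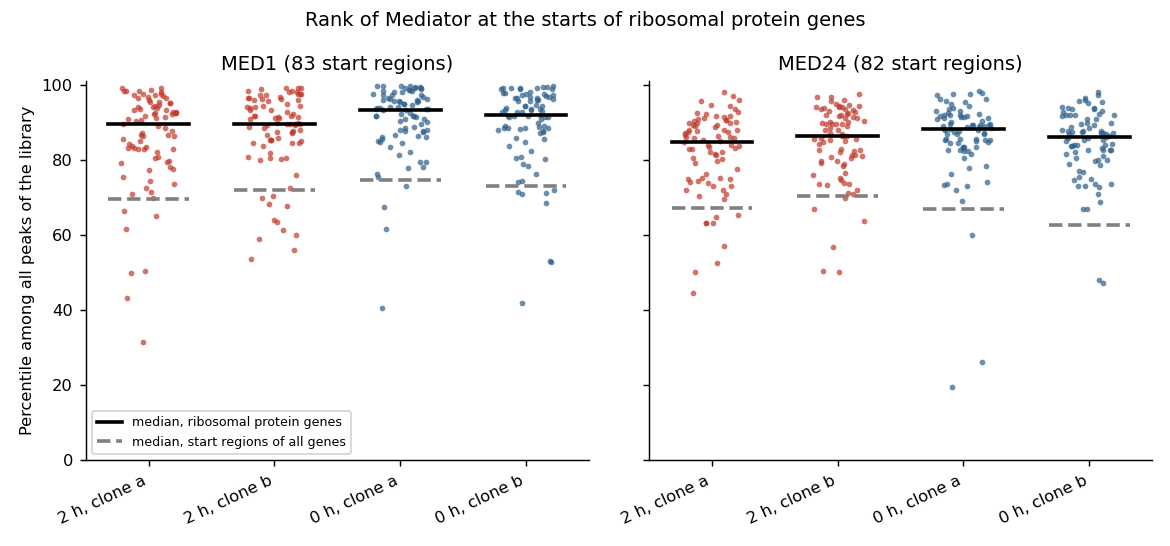
Percentile of each ribosomal protein gene start among all peaks of its library (y axis, 100 is the strongest) in the 4 MED1 libraries (left panel, 83 starts) and the 4 MED24 libraries (right panel, 82 starts). Points are genes, black lines their medians and grey dashed lines the medians of the called starts of all protein-coding genes. The black lines lie at 89.7 to 93.3 for MED1 and at 84.9 to 88.1 for MED24, above the grey lines in each library.

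Rps12, a small subunit protein, held the highest mean rank for both proteins. Its MED1 percentile was 99.2 and 99.2 at 2 h, and 99.7 and 99.8 at 0 h. In the MED1 lists its best peak stood at rank 350 of 43949 and 358 of 47305 at 2 h, and at rank 122 of 38668 and 80 of 37483 at 0 h. Its merged MED1 region, chr10:23780522-23788064, was the longest at any member start, with 7543 bp against a median of 1593 bp. Its MED24 percentile was 97.1 and 97.6 at 2 h, and 97.8 and 98.0 at 0 h. Both 2 h values lay below both 0 h values for each protein, by less than 1 point within each clone.

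The next MED1 starts in order were Rps27a, whose product is made as a fusion to ubiquitin, Rps3a1, Rps7 and Rpl18. Rps27a stood at 99.2 and 99.1 at 2 h, and at 99.6 and 99.4 at 0 h. Rps3a1 stood at 98.4 and 99.0 at 2 h, and at 99.7 and 99.2 at 0 h. Rps7 stood at 98.2 and 99.0 at 2 h, and at 99.4 and 99.0 at 0 h. At these 3 genes both 2 h values lay below both 0 h values, by 1.36 points or less within each clone. The highest MED24 starts after Rps12 included Rps20, Rpl4 and Rps28. Rpl4, a protein of the peptide exit tunnel, stood at 95.8 and 95.7 at 2 h, and at 97.3 and 95.3 at 0 h, and these ranges overlapped. The starts of Rps27a, Rps28, Rpl4 and Rpl18 were also starts of Clhc1, Ndufa7, Zwilch and Sphk2. Among the members, 17 MED1 and 16 MED24 starts were shared with another gene in this way.

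Rps20 was among the lowest MED1 percentiles, but its start is not in the table, and the choice of gene end set its value. It had a MED1 region at 1 end of its span at 31.4 and 58.9 at 2 h, and at 40.5 and 41.9 at 0 h. A second MED1 region, chr4:3833076-3836031 at the other end, stood at 98.6 and 98.3 at 2 h, and at 99.2 and 98.6 at 0 h. That region overlapped the MED24 start region of Rps20, which stood at 98.2 and 96.8 at 2 h, and at 98.3 and 96.5 at 0 h. Among members with a table start, Rpl10l, the autosomal copy of the X-linked Rpl10, was lowest for MED1, with 49.8 and 59.8 at 2 h, and 61.5 and 71.5 at 0 h. Rpl22 followed, with 61.7 and 63.4 at 2 h, and 76.3 and 52.9 at 0 h, and its groups overlapped.

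MED1 ranked higher within its lists than MED24 at most of these starts, as it did over all genes. Over the 80 members whose start regions of the proteins overlapped, MED1 had the higher mean percentile at 64 (80.0%) and MED24 at 16. Over 9047 protein-coding genes with such starts, MED1 had the higher one at 71.8%. The median difference, MED1 minus MED24, was 4.25 percentile points for the members and 5.63 for all these genes. The proteins were ranked by different columns of their lists, so the difference is one of position within each list. Rps19bp1, which encodes a protein that binds Rps19, averaged 86.5 for MED1 and 43.8 for MED24 over the 4 libraries. Rpl36al, a copy of Rpl36a, averaged 75.6 for MED1 and 48.4 for MED24, and Rpl7 averaged 92.1 for MED1 and 69.2 for MED24. The other way round, Rpl22 averaged 63.6 for MED1 and 79.1 for MED24, and Rps25 averaged 76.5 for MED1 and 86.6 for MED24.

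**Figure D2:**
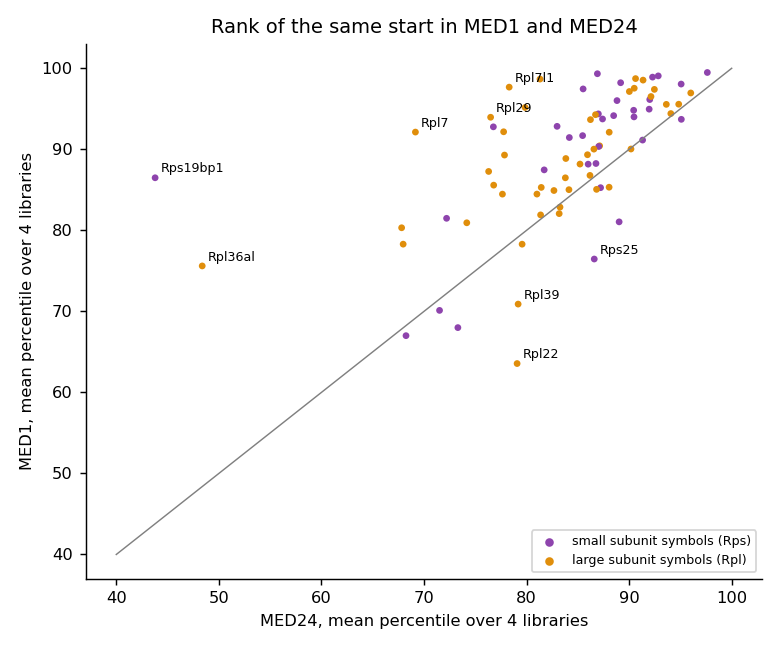
Mean percentile over the 4 MED1 libraries (y axis) against the mean over the 4 MED24 libraries (x axis) for 80 ribosomal protein gene starts. Points are genes, coloured by small or large subunit symbol, and the grey line marks equal ranks. There are 64 points above the line and 16 below it, with Rps19bp1, Rpl36al and Rpl22 farthest to the sides.

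MED1 summits, which the MED24 lists do not give, lay on both sides of the starts, with medians just downstream. For members with a table start, the summit nearest the start, among peaks within 1 kb of it, was at a median of 38 and 32 bp downstream of it at 2 h, and of 32 and 35.5 bp at 0 h. It was within 250 bp of the start in 63 of 66 and 64 of 65 genes at 2 h, and in 63 of 64 and 59 of 64 genes at 0 h. The quartiles were -26 and 90.5 bp (clone a) and -39 and 106 bp (clone b) at 2 h. At 0 h they were -35.5 and 104.75 bp, and -25 and 99.75 bp. Downstream of the start lay 43 of 66 and 41 of 65 summits at 2 h, and 44 of 64 and 40 of 64 at 0 h. Values over all genes were not taken. The medians of 2 h and 0 h overlapped. The most distant summit was that of Rpl41, at 1330 bp in clone b at 0 h.

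**Figure D3:**
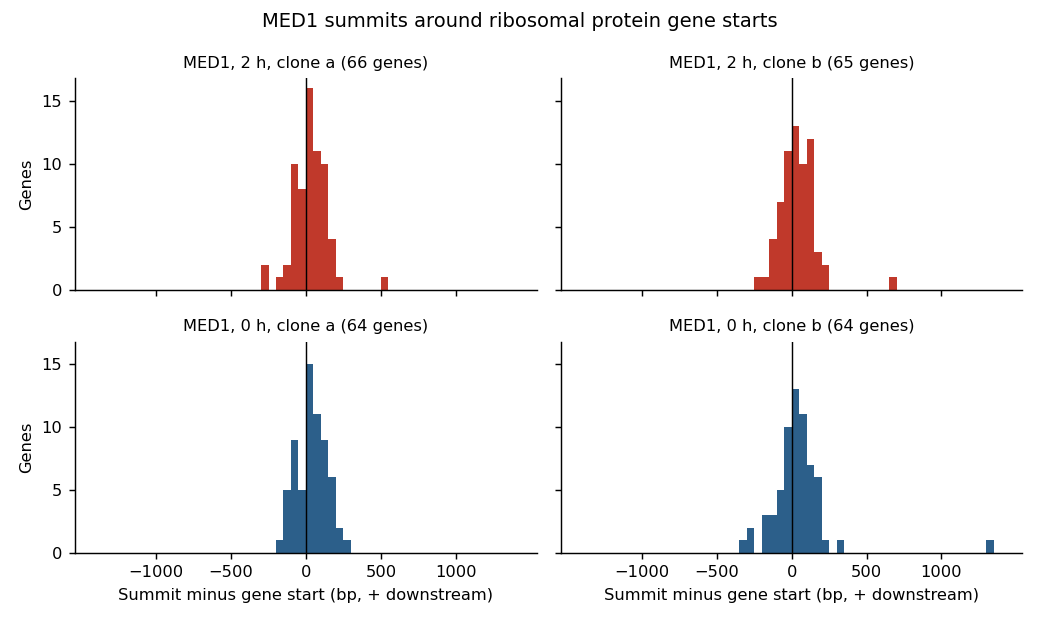
Distance of the MED1 summit from the annotated start (x axis, bp, positive values downstream) at ribosomal protein genes in each library, as the number of genes per 50 bp (y axis). The upper panels show clones a and b at 2 h and the lower panels the same clones at 0 h. The counts gather around medians of 32 to 38 bp in all 4 panels.

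Cells given 4OHT for 2 h were then compared with untreated cells (0 h). A smaller share of the regions at ribosomal protein genes than of all regions was gained or lost. Gained regions had a peak in each 2 h library and none in a 0 h library, lost regions had the opposite pattern, and retained regions had a peak in every library. Of the 315 MED1 regions, 17 were gained (5.40%, against 17.6% of all MED1 regions), 16 were lost (5.08%, against 6.90%) and 135 were retained (42.9%, against 30.9%). Of the 277 MED24 regions, 18 were gained (6.50%, against 16.0% of all MED24 regions), 9 were lost (3.25%, against 8.83%) and 119 were retained (43.0%, against 32.6%). The others, 147 for MED1 and 131 for MED24, were called in some other set of libraries. Peak lists give no read numbers, so depth is unknown. The 2 h libraries held more peaks, with a mean of 45627 at 2 h and 38076 at 0 h for MED1, and of 45688 at 2 h and 40044 at 0 h for MED24. The exact two-sided permutation test over 2 against 2 libraries gave p = 0.333 for each protein, the smallest p that this design allows. Among the 20000 highest ranked peaks of each library, gained MED1 regions numbered 7 and lost ones 15, and gained MED24 regions 6 and lost ones 11. Lost regions then outnumbered gained ones for both proteins, in a setting that changes the length of the lists and the strength of their peaks at once. Whether the same holds for all regions in that setting was not examined. Peaks of −log10 q of at least 10 gave 10 gained and 8 lost MED1 regions, and 8 gained and 9 lost MED24 regions. Leaving out 1 library lets fewer libraries decide. Gained MED1 regions then numbered 51 without clone a and 35 without clone b of the 2 h group. Lost MED1 regions numbered 30 without clone b of the 2 h group, 38 without clone a of the 0 h group and 56 without its clone b. Gained MED24 regions numbered 46 without clone a and 39 without clone b of the 2 h group. Lost MED24 regions numbered 16 and 22 without clone a or b of the 2 h group, and 31 and 36 without clone a or b of the 0 h group. Shares over all regions were not taken under these settings, so the counts cannot be read as particular to the members. The part of list length in these counts was not tested.

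**Figure D4:**
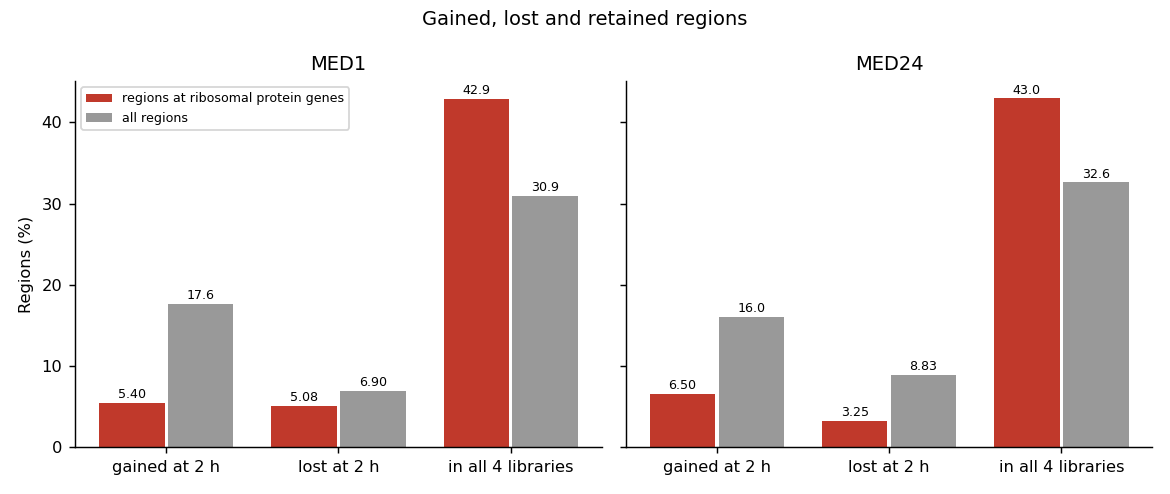
Share of regions (y axis, %) that were gained at 2 h, lost at 2 h or called in all 4 libraries, for MED1 (left) and MED24 (right). Red bars are the 315 MED1 and 277 MED24 regions at ribosomal protein genes and grey bars all regions of the protein. Red bars are shorter than grey ones for gained and lost regions and taller for regions in all 4 libraries.

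Most of the retained regions were the starts themselves. At the start lay 121 MED1 regions, of which 91 were retained, 2 gained and 3 lost, and 115 MED24 regions, of which 87 were retained, 3 gained and 1 lost. For MED1 the retained share at the start was 75.2%, against 66.2% of all regions at a start, the gained share 1.65% against 4.40% and the lost share 2.48% against 2.16%. For MED24 the retained share was 75.7% against 62.8%, the gained share 2.61% against 7.06% and the lost share 0.870% against 1.81%. The lost MED1 share at the start was thus near that of all starts. Away from the start, 15 MED1 regions were gained (7.73%, against 21.4% of all MED1 regions off any start) and 13 were lost (6.70%, against 8.28%). For MED24, 15 regions away from the start were gained (9.26%, against 18.5%) and 8 were lost (4.94%, against 10.8%). The gained shares away from the start were thus also below the background, and the lost MED1 share was close to it. The retained shares away from the start were 22.7% for MED1, against 20.6% of all such regions, and 19.8% for MED24, against 24.0%. Between 20 and 100 kb from a member gene lay 30 MED1 regions, of which 4 were gained (13.3%, against 22.6% of all MED1 regions at that distance from the nearest gene) and 0 lost (against 8.73%). Of the 34 MED24 regions there, 5 were gained (14.7%, against 18.6%) and 0 lost (against 11.4%). A median of 3 regions was assigned to each member for each protein, and 33 MED1 and 25 MED24 regions were equally near another gene.

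The strongest gained region lay 28.1 kb from the start of Rpl11, a large subunit protein that binds Mdm2 together with Rpl5 and 5S ribosomal RNA. It was chr4:136081462-136082446 for MED1, at the 92.4th and 71.1st percentile of clones a and b at 2 h, and chr4:136081498-136082271 for MED24, at the 94.8th and 87.2nd. Neither protein had a call there at 0 h. At the start of Rpl11, MED1 stood at 92.5 and 91.1 at 2 h, and at 91.8 and 93.3 at 0 h. MED24 there stood at 63.3 and 82.6 at 2 h, and at 82.5 and 82.6 at 0 h. So the gained region was called beside a start whose MED1 ranks overlapped between the times.

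Other regions were gained for both proteins. A region 14.6 kb from the nearest end of Rpl3, a core protein of the large subunit, stood at 62.9 and 66.5 for MED1 and at 82.0 and 72.3 for MED24, at 2 h. A region 55.6 kb from Rpl38, which in mouse controls the translation of Hox transcripts, stood at 56.7 and 64.5 for MED1 and at 12.5 and 17.1 for MED24. Regions 69.5 and 97.5 kb from Rpl34 were gained as well, with MED1 at 77.3 and 28.7 for the nearer one, and at 40.6 and 42.3 for the farther one. Within the span of Rpl39l, a testis paralogue of Rpl39, MED1 stood at 55.3 and 76.1 and MED24 at 39.0 and 71.3. Within the span of Rpl37rt, MED1 stood at 49.1 and 70.8 and MED24 at 40.3 and 58.2. These regions ranged from weak to strong within their lists, and the clones could lie far apart, as at the nearer Rpl34 region, where MED24 stood at 71.2 and 10.5. Regions near Rpl21 (MED1, 67.2 and 83.2) and Rps10 (MED24, 44.1 and 60.5) were gained for 1 protein and were called in some other set of libraries for the other.

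Of the starts, the one of Rpl3l was gained for MED1, at 18.8 and 24.0 at 2 h. The one of Rpl34-ps1 was gained for MED24, at 47.4 and 37.0. Neither belongs to a protein of the common ribosome, and both ranked in the lower part of their lists. They were the sole members whose region nearest the start was gained. Within 1 kb of a member start lay 2 gained MED1 and 3 gained MED24 regions, not all of which are named here. Rpl38 had the most assigned regions, 12 for each protein, of which 3 were retained for MED1 and 4 for MED24, and 1 was gained for each.

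The lost regions were mostly weak. The strongest was a MED24 region 7.95 kb from the start of Rpl39, a protein of the peptide exit tunnel, not called at 2 h and at 85.5 and 82.3 at 0 h. The next were a MED1 region within the span of Rps23rg1, at 62.5 and 64.3 at 0 h, and a MED24 region 0.302 kb from an end of Rpl23a, at 62.4 and 45.3 at 0 h. Near Rps20 the MED24 region chr4:3818466-3819347, 12.2 kb from the gene end, was lost, with 47.7 and 50.3 at 0 h. The MED1 region over the same place was retained but stood at 28.4 and 52.9 at 2 h, and at 89.7 and 89.0 at 0 h. At the other end of Rps20, as given above, both proteins stood above the 96th percentile in all libraries. Rps23rg1 was the sole member with a region lost for both proteins, 5.13 kb from its start and weak, at 21.4 and 30.9 for MED1 and at 20.9 and 27.3 for MED24 at 0 h.

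On the full lists, the mean rank of the retained starts was lower at 2 h for MED1 and for MED24, with differences of the size of the spread between clones. The shift is the percentile at 2 h minus that at 0 h within a clone. For MED1 the mean shift over 83 starts was -4.87 points for clone a and -1.90 for clone b, a mean of -3.39 ± 2.10 (SD, n = 2 clones). For MED24 the mean over 82 starts was -3.82 in clone a and 0.107 in clone b, a mean of -1.85 ± 2.77 (SD, n = 2 clones). The MED24 clones thus differed in sign. The median MED1 shift of the members was -2.47 and -1.81 points in clones a and b, against -3.91 and -1.38 for all called starts. The median MED24 shift was -3.28 and -0.003 points, against -0.099 and 5.17 for all called starts. Shifts also varied less among the members, with an SD over genes of 8.16 and 8.04 points for MED1, against 18.1 and 17.8 over all starts, and of 11.5 and 7.54 for MED24, against 20.6 and 20.4. On the 20000 highest ranked peaks of each library the members' mean shift was -8.84 points for MED1, against -9.88 for all retained starts, and -7.47 for MED24, against -1.60. The members' shifts were then -9.92 and -7.77 points for MED1 and -8.34 and -6.61 for MED24 in clones a and b. Percentiles were there taken among 20000 peaks, so the SDs between clones on the full lists are not on their scale. Without clone a of the 2 h group, the mean MED24 shift on the full lists was -0.56. The members rank near the top of the lists, where less room is left for an upward shift. Anywhere in these lists, a few points span many ranks. Rps19, for example, stood at MED1 rank 1206 of 43949 and 1508 of 47305 at 2 h, and at rank 283 of 38668 and 174 of 37483 at 0 h, a difference of less than 3 points in each clone.

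The sign of the shift was read per gene in both clones. For MED1, 49 of 83 starts were lower at 2 h in both clones (59.0%, against 42.9% of all called starts), 4 were higher (4.82%, against 18.9%) and 30 had opposite signs. For MED24, 30 of 82 were lower (36.6%, against 24.1%), 10 were higher (12.2%, against 38.4%) and 42 had opposite signs. Few of these shifts were large. Lower by over 10 points in both clones were 5 MED1 starts, against 11.2% of all, and 4 MED24 starts, against 7.44%. Higher by over 10 points in both clones were 0 members, against 6.45% of all starts for MED1 and 17.7% for MED24. A start at or above the 90th percentile at 0 h has no room for such a rise. For MED1 that held for 65.1% and 59.0% of members (clones a and b), against 19.8% and 18.5% of all starts. For MED24 it held for 35.4% and 26.8%, against 10.5% and 8.53%. The shares of higher and lower starts given so far are thus not compared at like rank. By subunit, 19 of 34 small subunit and 30 of 49 large subunit starts were lower in both clones for MED1, and 12 of 34 and 18 of 48 for MED24. Among starts that ranked at 0 h at or above the lower quartile of the members, the median MED1 shift was -1.92 and -1.73 points for members, against -3.26 and -2.12 for all starts. For MED24 it was -3.20 and 0.006 for members, against -2.67 and -0.687 for all starts. Beside all starts above that cutoff, the members' medians were higher for MED1 in both clones, and for MED24 in clone b but not in clone a. The cutoff sets a floor and does not match ranks above it, and it uses the 0 h values that enter the shift.

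**Figure D5:**
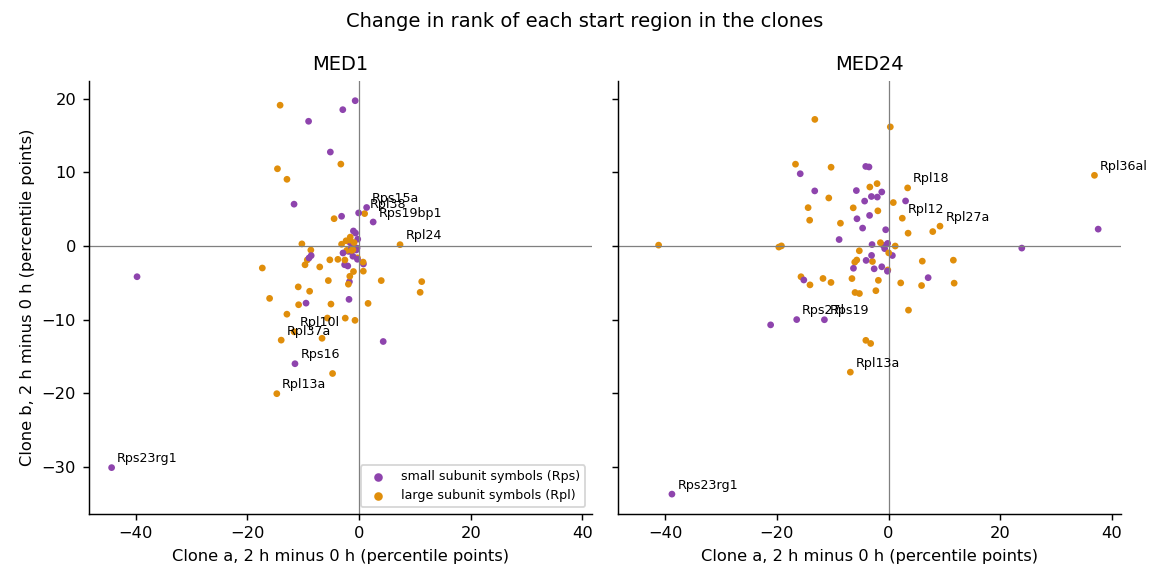
Difference in percentile between 2 h and 0 h (2 h minus 0 h, percentile points) in clone a (x axis) and clone b (y axis) for the 83 MED1 starts (left) and 82 MED24 starts (right). Points are genes coloured by small or large subunit symbol, with names for members that were lower or higher in both clones by the most and have a start in the promoter table. Below both grey zero lines lie 49 MED1 and 30 MED24 points, above both lie 4 and 10, and Rps23rg1 lies apart at the lower left in both panels.

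The start of Rps23rg1, a retroposed copy of Rps23, stood apart for both proteins. MED1 in chr8:3567083-3568533 stood at 43.3 and 53.5 at 2 h, and at 87.6 and 83.6 at 0 h. MED24 in chr8:3567156-3568225 stood at 50.1 and 50.1 at 2 h, and at 88.9 and 83.8 at 0 h. All values at 2 h lay far below all values at 0 h. The differences were -44.3 and -30.1 points for MED1, and -38.8 and -33.7 for MED24. No other member was lower by over 20 points in both clones for either protein.

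Rpl13a, a large subunit protein that in human cells also silences transcripts of the interferon-gamma response, was the ribosomal protein gene that ranked lower in both proteins by the most. MED1 at its start, chr7:45126246-45129662, stood at 70.9 and 68.3 at 2 h, and at 85.6 and 88.4 at 0 h. MED24 there stood at 80.3 and 66.8 at 2 h, and at 87.2 and 84.0 at 0 h. The times did not overlap for either protein.

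Further small subunit starts were lower at 2 h without overlap of the times. Rps16 had MED1 at 66.4 and 55.9 at 2 h, and at 77.9 and 71.9 at 0 h. Its MED24 values overlapped, with 83.9 and 74.5 at 2 h, and 60.0 and 74.8 at 0 h. Rps19, the gene most often mutated in human Diamond-Blackfan anaemia, had MED24 at 82.1 and 85.5 at 2 h, and at 93.6 and 95.5 at 0 h. Its MED1 stood at 97.2 and 96.8 at 2 h, and at 99.3 and 99.5 at 0 h. Rps27l, a paralogue of Rps27 that p53 induces, had MED24 at 70.4 and 69.9 at 2 h, and at 86.9 and 79.9 at 0 h. Its MED1 stood at 91.8 and 89.2 at 2 h, and at 93.6 and 96.5 at 0 h. Rps16 thus differed between the proteins, and the other genes were lower at 2 h in both.

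Of the large subunit, Rpl37a had MED1 at 75.5 and 67.7 at 2 h, and at 89.4 and 80.5 at 0 h. Its MED24 stood at 44.4 and 71.0 at 2 h, and at 85.6 and 70.9 at 0 h, so that clone a was lower by 41.2 points and clone b was not. Rpl10l had MED1 lower by 11.6 and 11.7 points, at the values given above. Its MED24 start stood at 26.4 and 45.4 at 2 h, and at 68.6 at 0 h in clone a, with no call in clone b at 0 h.

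Few starts ranked higher at 2 h in both clones. For MED1 these were the 4 genes Rps19bp1, Rps15a, Rpl38 and Rpl24, with shifts in the clone that moved less of 2.53, 1.36, 0.999 and 0.171 points. Rps15a had MED1 at 92.7 and 94.0 at 2 h, and at 91.3 and 88.8 at 0 h. For MED24 the largest was Rpl36al, at 63.1 and 56.9 at 2 h, and at 26.2 and 47.3 at 0 h. MED1 at the same start moved the other way, with 71.3 and 70.5 at 2 h, and 82.2 and 78.5 at 0 h. This start is shared with Mgat2. Rpl18, whose MED1 ranked near the top at 98.3 and 98.2 at 2 h and at 99.6 and 98.8 at 0 h, had MED24 at 93.6 and 93.3 at 2 h, and at 90.2 and 85.4 at 0 h. Rps14, the small subunit gene lost in the human 5q- syndrome, had MED24 at 91.6 and 93.9 at 2 h, and at 88.5 and 87.8 at 0 h. Rpl27a and Rpl12 followed, with MED24 shifts of 9.22 and 2.69 points, and of 2.46 and 3.77 points, in clones a and b. Of the 80 members with overlapping starts, Rps19bp1 alone was higher in both clones for both proteins (1.25%, against 12.2% of the 9047 protein-coding genes with such starts). Lower in both clones for both proteins were 24 (30.0%, against 16.9%). These shares are not matched for rank at 0 h either.

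Members with and without the ETS core differed by a few points in median rank. MED1 at the 34 starts with CCGGAA had a median percentile of 89.2 at 2 h and 92.2 at 0 h, and at the 30 starts without it 86.4 at 2 h and 91.0 at 0 h. The median MED1 shift was -2.11 and -1.76 points with the core, and -4.64 and -2.24 without it, in clones a and b. For MED24 the median was 86.3 at 2 h and 87.0 at 0 h at 34 starts with the core, and 82.1 at 2 h and 85.9 at 0 h at 29 starts without it. The median MED24 shift was -3.20 and 1.02 points with the core, and -3.20 and -0.37 without it. No test was made of these differences.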

How the data were processed

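Mediator ChIP-seq peaks were analysed in 8 libraries. Per the submitters' processing notes, Bowtie2, bedtools, MACS2 and the mm10 build were used. Versions, settings and the handling of reads that match several places were not given in the sources used here. Each library has its own deposited list. The MED1 lists hold, as deposited by the authors, a score, a fold enrichment (a ratio), p-values and q-values on a −log10 scale, and a summit. The MED24 lists hold a score deposited by the authors. Its meaning is not stated, and it was used for ranks only, apart from a stricter threshold. MED24 peak names carry FLAG and a folder name of EP300; the labels were followed.

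Peaks of each protein were merged at an overlap of 1 bp or more, and regions were assigned to the nearest gene span, ties kept. Ranks were taken within each library and differenced within clones, which pair the samples because the labels give the same clone name. No test was made over the members; peak numbers were compared by an exact permutation test. That test did not use the pairing by clone, and having 2 libraries per group sets its smallest p. Python 3.11.15, pandas 2.3.3, numpy 2.4.6 and scipy 1.17.1 were used, and merging, calling and ranking were tested on simulated data. Named genes were, per protein, the 5 highest and 5 lowest starts, the 5 that ranked higher and the 5 that ranked lower by the most in both clones, members without a start region, up to 6 gained and 6 lost regions, and the 5 members with the most regions. Some of these genes are not reported here. The members and lists were chosen with earlier results of these data known.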

Additional observations from a re-analysis of the deposited data

How the results depend on the processing

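The number of members with a start called in all 4 libraries was 79 to 84 for MED1 and 77 to 83 for MED24 under the alternatives run on all 91 members, lowest with the 20000 highest ranked peaks. It was 81 for MED1 and 80 for MED24 without the 7 symbols set apart by name, a restriction chosen after seeing the data. Counts of gained and lost regions moved with the peaks admitted, and no shares over all regions were taken under these settings. Peaks of −log10 q of at least 10 gave 10 gained and 8 lost MED1 regions and 8 gained and 9 lost MED24 regions, the MED24 score being read as 10 times −log10 q, which its lists do not state. The 20000 highest ranked peaks per library gave 7 gained MED1 and 6 gained MED24 regions, with mean shifts of -8.84 points for MED1 and -7.47 for MED24, on lists of another length. Windows of 200 bp around the summit or centre gave 26 gained MED1 and 14 lost MED24 regions. With the replicate block, counting within each clone and averaging, 52.5 MED1 regions were gained and 55.5 lost, and 48.5 MED24 regions were gained and 44.5 lost, since 1 library of each time then decides. The members with a start called in both libraries of a clone averaged 83.5 for MED1 and 82.5 for MED24. The mean shift is by arithmetic the same with and without the block, -3.39 and -1.85. Among members with a start in the promoter table, a restriction chosen after seeing the data, 10 MED1 regions were lost. Leaving out 1 library at a time gave 24 to 51 gained and 23 to 56 lost MED1 regions, 23 to 46 gained and 16 to 36 lost MED24 regions, and mean shifts of -4.22 to -2.66 points for MED1 and -3.15 to -0.56 for MED24. Ranked by peak length, the mean MED24 shift was 0.485, within the SD between clones but of the other sign. Of 94 recomputed values, 25 moved, counts by more than 1.5 times or shifts by more than the SD between clones on the full lists. The other 69 include the MED24 shifts of 0.485 and -0.56, since that SD is wide. Precision is limited by 2 clones per group; depth is unknown, and a missing call does not show that Mediator was absent.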

Other observations

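Genes related to the ribosome were read in the same way, and no test was made of them. Their lists were chosen with earlier results of these data known. Of all protein-coding genes, 47.7% had a start called in all 4 libraries for MED1 and 44.9% for MED24. Fau and Rack1, ribosomal protein genes that the symbols leave out, had a start called in all 4 libraries of each protein. Fau, which encodes a ubiquitin-like protein fused to Rps30, had MED1 at 81.7 and 85.3 at 2 h (clone a, then clone b), and at 80.5 and 70.9 at 0 h. Its MED24 stood at 81.2 and 78.0 at 2 h, and at 79.5 and 56.8 at 0 h. Of 15 other genes with a TOP tract, many of which encode translation factors, 15 had a start called in all 4 libraries for each protein. Their median shifts were -1.37 and -1.42 points for MED1, and -2.22 and 0.326 for MED24, in clones a and b.

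Of 20 ribosome biogenesis genes, among them Npm1, which is also in the TOP list, 20 had a start called in all 4 libraries for each protein. MED1 was lower at 2 h in both clones at 14 of them and MED24 at 12, against 42.9% and 24.1% of all called starts. Their median shifts were -7.51 and -3.68 points for MED1, and -6.48 and -0.824 for MED24. Pes1, a factor of large subunit assembly, had MED24 at 75.4 and 84.5 at 2 h, and at 94.3 and 94.3 at 0 h. Fbl, the methyltransferase of box C/D snoRNPs, had MED1 at 79.9 and 80.3 at 2 h, and at 92.8 and 90.9 at 0 h. Ubtf, which activates RNA polymerase I, had MED1 at 98.9 and 99.2 at 2 h, and at 98.4 and 92.9 at 0 h, with its MED24 at 92.8 and 94.9 at 2 h, and at 86.8 and 86.1 at 0 h. Of 10 S6 kinase genes, 7 had a start called in all 4 libraries for MED1 and 6 for MED24, against 47.7% and 44.9% of all genes. The start of Rps6kl1 was gained for MED24, at 51.5 and 48.4 at 2 h.

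Of the 7 paralogues among the members, 5 had a start called in all 4 libraries for MED1 and 4 for MED24, against 47.7% and 44.9% of all genes. For MED1 the paralogues so called had a median percentile of 77.9 at 2 h and 84.0 at 0 h. In both clones 4 were lower at 2 h and 0 higher, while 42.9% of all called starts were lower. For MED24 the medians were 72.2 at 2 h and 76.7 at 0 h, with 1 lower and 1 higher in both clones. Rpl7l1, a paralogue of Rpl7, ranked with the highest members for MED1, at 97.5 and 97.5 at 2 h and at 99.1 and 96.7 at 0 h, while its MED24 stood at 74.9 and 79.6 at 2 h, and at 85.6 and 73.1 at 0 h.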
